A study of Mus musculus with 4 samples.

Results

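This account follows 10 genes of the BCL-2 family, which set whether a cell lives or dies at its mitochondria, in mRNA of mouse leukaemia stem cells. The genes were chosen by symbol from the 16442 genes of the deposited table, by a rule that uses no measured value, although the family was picked with earlier results of these data known. They comprise 5 antiapoptotic genes (Bcl2, Bcl2l1, Mcl1, Bcl2a1b and Bcl2a1d), 2 effectors (Bax and Bak1) and 3 BH3-only genes (Bcl2l11, Bid and Bad). All 10 were in the table, and all 10 had the mean of at least 1 FPKM that a test required. FPKM, the unit of every level below, stands for fragments counted on a gene, scaled by the length of its exons and library size. That length takes in every annotated exon, used or not, so comparisons of levels between genes are approximate.

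Effector proteins, once active, assemble into pores in the outer mitochondrial membrane and release cytochrome c, which starts the caspase cascade. Antiapoptotic proteins hold effectors and their activators in a groove on their surface. BH3-only proteins are stress sensors that occupy that groove or activate the effectors directly. In myeloid leukaemia the antiapoptotic proteins are known as drug targets, and inhibitors of BCL-2 are in clinical use.

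Leukaemia stem cells, the cells that can restart the disease, were isolated from leukaemic bone marrow of C57BL/6 mice that were wild type (WT) or carried a knockout of Rreb1 (KO), a zinc-finger gene of RAS signalling. There were 2 libraries per genotype, which the titles number without saying whether they came from separate mice. Unstated in the labels are the leukaemia model, the sorting gate, the deleted part of Rreb1, the cells in which it was deleted, the age of the mice and any pooling of animals. The genotype label of the second KO library names Rreb2, and the extraction text speaks of macrophages where the titles name leukaemia stem cells, so libraries were grouped by title.

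Depth was 16590851 to 18451260 assigned reads per library. Rreb1 itself stood at 5.24 and 6.57 FPKM in WT and at 6.10 and 6.93 FPKM in KO, so its total transcript level did not separate the genotypes, and WT and KO below mean the libraries so labelled. Of the 7 stem cell and myeloid markers that were checked, all were detected, with Hoxa9 at 28.9 to 35.8 FPKM and Meis1 at 10.8 to 11.9. In 5 of them both KO libraries lay above both WT libraries and in 2 below, where 30.5% and 24.9% of all tested genes did so. For Meis1, 1 of the 5, the closest libraries were at 11.46 FPKM in WT and 11.51 in KO. Cd33 rose from a mean of 34.8 to 61.6 FPKM (limma adjusted p = 0.020), the 1 marker of the 7 called by limma. Kit had means of 3.95 FPKM in WT and 7.26 in KO, and Itgam 7.78 and 15.5 (limma adjusted p = 0.051 and 0.133). Cd34 had means of 69.9 FPKM in WT and 50.2 in KO, and Flt3 27.2 and 18.6 (limma adjusted p = 0.065 and 0.069). Limma-voom called 3 of the 7 higher and 2 lower, where it called 3.51% and 3.04% of all tested genes. Marker sets of other cells also differed between the groups. Their counts are limma calls, where 0.603% of all tested genes were called higher and 0.408% lower. The summed levels take in every marker of a set in the table, called or not. Of 10 neutrophil markers 7 rose in KO (summed level 1266 and 1292 FPKM in WT, 2927 and 3511 in KO). Of 6 tested erythroid markers 5 rose (93.5 and 83.8 against 422 and 514 FPKM), and of 7 tested macrophage markers 4 fell (481 and 422 against 308 and 289 FPKM). Most of the macrophage sum was Cd68, which was not called (368 and 290 FPKM in WT, 244 and 226 in KO, limma adjusted p = 0.158). Of 4 tested B cell markers 2 fell (222 and 212 against 135 and 119 FPKM), as did 2 of 4 tested basophil and mast cell markers (489 and 551 against 281 and 276 FPKM). Of 5 tested monocyte markers 2 fell, while their summed level overlapped (769 and 691 against 762 and 826 FPKM). Of 3 tested T and NK cell markers none was called (15.7 and 20.6 against 7.34 and 8.85 FPKM). Some markers went against their set without a limma call. The B cell marker Cd79a had means of 1.80 FPKM in WT and 3.40 in KO (limma adjusted p = 0.101). The basophil marker Mcpt8 had 37.2 and 43.5, and the monocyte marker Ly6c2 538 and 675 (limma adjusted p = 0.217 and 0.203). Estimates were below 0 for 3 neutrophil markers and 1 erythroid marker. Among the markers in the table none was at 0 in any library, and the B cell marker Ms4a1 was not analysed here. In bulk RNA, fewer cells of a type and less RNA per cell cannot be told apart, and the part these markers play in the values below was not tested.

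None of the 10 genes passed the test between genotypes. By limma on log2(FPKM + 1), with Benjamini-Hochberg adjustment over 11768 genes, 0 of 10 were called higher and 0 lower, where 0.603% and 0.408% of all tested genes were called (1.01% in either direction). At an unadjusted p below 0.05 there were 1 higher (Bcl2a1b) and 2 lower (Bcl2 and Bid), against 11.4% and 9.35% of tested genes (20.7% in either direction). Limma-voom, which models the precision of read counts, called 0 of the 10 higher and 1 lower (Bcl2), where it called 3.51% and 3.04% of 11376 tested genes (6.55% in either direction). The median log2 fold change was −0.031 over the 10 genes and 0.025 over all tested genes. The KO pair was wholly above the WT pair for 2 of the 10 (Bcl2a1b and Bak1) and wholly below it for 3 (Bcl2, Bcl2l1 and Bid), near the background of 30.5% and 24.9% of tested genes (55.3% in either direction). An exact two-sided permutation test of 2 libraries against 2 reaches at best p = 0.333. Limma combines each gene's own spread (2 degrees of freedom) with a trend drawn from all tested genes (4.10 degrees of freedom).

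Levels within the family spanned more than the differences between genotypes. Bax stood highest in each library, at 258 to 272 FPKM, above 98.9% of the genes in the table. Bid followed at 50.9 to 68.0 FPKM, then Bad at 28.4 to 33.2. Bak1 at 22.6 to 27.1 and Mcl1 at 16.5 to 25.3 FPKM had overlapping ranges over the 4 libraries. Bcl2l1 came next at 10.7 to 14.6 FPKM. Bcl2a1b at 7.70 to 10.6 and Bcl2 at 5.19 to 8.01 FPKM overlapped in range, and Bcl2a1d at 2.89 to 3.74 lay below them. Bcl2l11 was lowest, at 0.898 to 1.16 FPKM, above 24.96% to 31.1% of the table's genes. All other neighbours in this order had ranges that did not overlap.

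**Figure D1:**
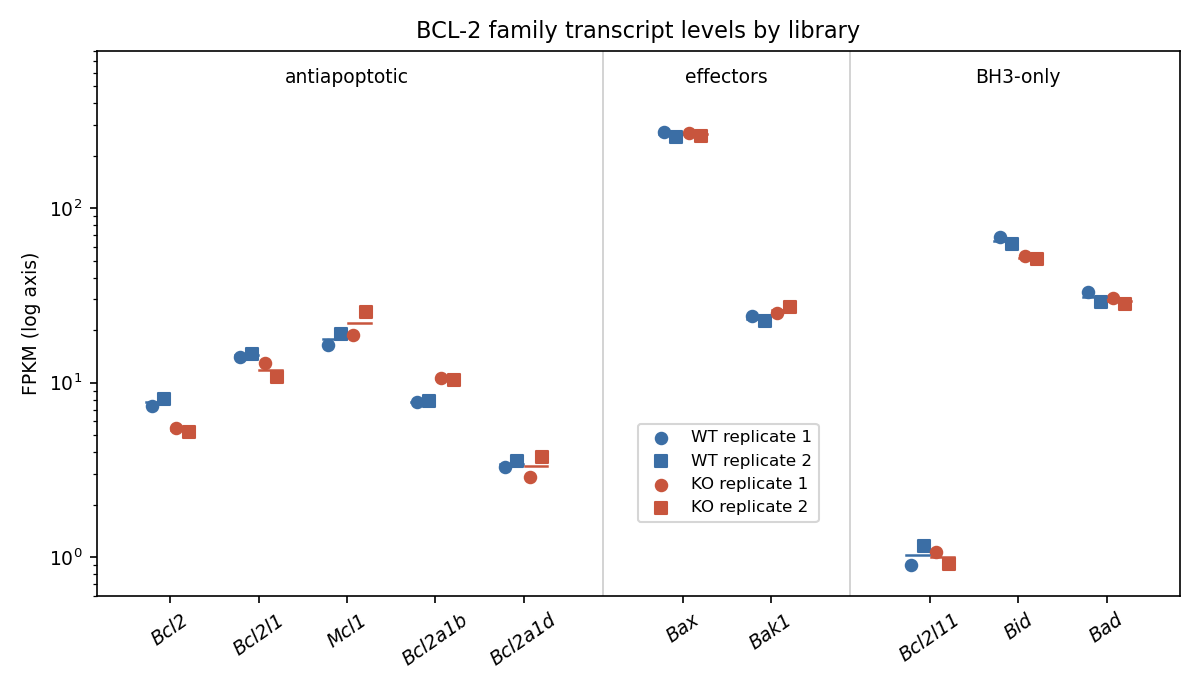
FPKM of the 10 genes on a log axis, grouped by role, with WT in blue and KO in red, circles for replicate 1, squares for replicate 2 and a line at each group mean (n = 2). Bax lies near 265 FPKM in all 4 libraries and Bcl2l11 near 1, while the WT and KO points of Bcl2 and of Bcl2a1b do not overlap.

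Among the antiapoptotic genes, Bcl2 had the largest difference of the 10. Bcl2, the founding member and the target of venetoclax (chromosome 1, 106538178 to 106714274, minus strand, GRCm38), was at 7.39 and 8.01 FPKM in WT and at 5.51 and 5.19 FPKM in KO, from 1248 and 1217 against 930 and 809 reads. Both KO values lay below both WT values, and the group means were 7.70 ± 0.441 and 5.35 ± 0.232 FPKM (SD, n = 2). This amounted to −0.45 on the log2 scale, with 95% limits of −0.70 and −0.21 and a limma adjusted p = 0.111. The call depended on the test, since limma-voom on the whole reads recovered from the values gave −0.54 with an adjusted p = 0.0112, and Bcl2 was the 1 of the 10 genes that it called lower, where it called 3.04% of tested genes lower. An antisense gene, D630008O14Rik, shares 558 bases (6.09%) of the Bcl2 exons, and reads of the 2 strands cannot be told apart here. That gene was at 0.237 to 0.742 FPKM.

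Bcl2l1 encodes BCL-XL, and a shorter splice form with the opposite activity that gene totals do not separate. It was at 14.1 and 14.6 FPKM in WT and at 12.97 and 10.7 FPKM in KO (chromosome 2, 152780668 to 152831728, minus strand). KO lay below WT in both libraries, but the KO pair was spread more widely than the gap to WT. The log2 fold change was −0.26 (SE 0.11, limma adjusted p = 0.250), and −0.14 without KO replicate 2.

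Mcl1, a short-lived protein on which myeloid progenitors are known to depend, was at 16.5 and 19.0 FPKM in WT and at 18.9 and 25.3 FPKM in KO (chromosome 3, 95658788 to 95663176, plus strand). The groups overlapped, since KO replicate 1 was close to WT replicate 2 and KO replicate 2 stood above the rest. The log2 fold change was 0.29 (SE 0.15, limma adjusted p = 0.324), and 0.088 without KO replicate 2. Mcl1 also has a proapoptotic splice form that these totals include.

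Bcl2a1, or A1, an antiapoptotic gene of myeloid and lymphoid cells, is present in mice as several near-identical copies on chromosome 9. Bcl2a1a, Bcl2a1b and Bcl2a1d were in the table. Over the 516 coding bases annotated by GENCODE M21 the copies differ at 12 positions. Bcl2a1b and Bcl2a1d are 98.8% identical, Bcl2a1a and Bcl2a1d 98.6%, and Bcl2a1a and Bcl2a1b 97.9%. The longest coding stretch without any difference among the 3 copies has 217 bases. The first 120 coding bases, within 1 exon, are shown because they hold 7 of the 12 coding positions that differ, written in capitals. A read could be assigned to a copy by these positions, and exon bases outside the coding sequence were not compared position by position. They lie at chr9:88957051-88957170 (plus strand), chr9:89199360-89199479 (plus strand) and chr9:88731600-88731719 (minus strand) in GRCm38, in the order of the lines.
Bcl2a1a: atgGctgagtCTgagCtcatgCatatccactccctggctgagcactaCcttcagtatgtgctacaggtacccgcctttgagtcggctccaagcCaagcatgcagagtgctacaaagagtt
Bcl2a1b: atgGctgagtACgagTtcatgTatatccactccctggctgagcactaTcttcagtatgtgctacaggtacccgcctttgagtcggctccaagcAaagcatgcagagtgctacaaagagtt
Bcl2a1d: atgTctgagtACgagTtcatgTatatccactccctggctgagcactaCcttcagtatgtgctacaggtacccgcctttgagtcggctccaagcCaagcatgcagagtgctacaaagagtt

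Counted from 1 at the start codon, Bcl2a1a and Bcl2a1b differ there by C11A, T12C, C16T, C22T, C48T and C94A, and Bcl2a1b and Bcl2a1d by G4T, T48C and A94C. Of the distinct stretches of 100 bases in Bcl2a1b transcripts 56.8% also occur in a transcript of another gene, on either strand, as do 54.7% of those of Bcl2a1d and 43.5% of those of Bcl2a1a. At 50 bases the shares are 79.2%, 79.5% and 69.0%. For the other 8 genes the share at 100 bases ran from 0% (Bcl2l1, Mcl1 and Bcl2l11) to 15.1% (Bid), and it came from genes that overlap them. The gene model Gm29094 also shares 401 exonic bases with Bcl2a1b on the same strand. The labels do not say how reads in such stretches were counted, so the split of reads between copies and their total are uncertain.

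Bcl2a1b had close replicates and a gap between genotypes. It was at 7.70 and 7.82 FPKM in WT and at 10.6 and 10.4 FPKM in KO, from 116 and 106 against 159 and 145 reads. KO lay above WT in both libraries, with a log2 fold change of 0.39 (95% limits 0.18 to 0.61, limma adjusted p = 0.112). Exact Poisson 95% intervals for counting error were 6.36 to 9.23 FPKM in WT replicate 1 and 8.79 to 12.3 in KO replicate 2. The intervals of these 2 libraries overlap, which does not by itself place their difference within counting error. Limma-voom gave an adjusted p = 0.232.

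Bcl2a1d, the lowest of the copies, was at 3.27 and 3.56 FPKM in WT and at 2.89 and 3.74 FPKM in KO, from 46 to 55 reads. The groups overlapped, with a log2 fold change of −0.038 (SE 0.14, limma adjusted p = 0.896). Bcl2a1a, which is not among the 10, took most of the reads, with 36.9 and 38.8 FPKM in WT and 49.7 and 40.4 in KO. Its KO libraries differed from each other more than KO replicate 2 differed from WT. Its log2 fold change of 0.24 (limma adjusted p = 0.291) was 0.093 without KO replicate 1.

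The sum of the 3 copies does not depend on the split between them. It would still miss any shared reads that were left uncounted, so its size is uncertain too. It was 47.9 and 50.2 FPKM in WT and 63.2 and 54.6 FPKM in KO, so both KO libraries lay above WT, and KO replicate 2 was closer to WT than to KO replicate 1. Fitted as 1 row in place of the copies, the sum had a log2 fold change of 0.26 (95% limits 0.016 to 0.50, limma adjusted p = 0.220). Of the reads on the copies, Bcl2a1a took 73.8% to 78.5%, Bcl2a1b 15.5% to 19.0% and Bcl2a1d 4.82% to 7.46% over the 4 libraries.

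With Bcl2a1a and Bcl2l2 added, the antiapoptotic genes summed to 87.0 and 93.1 FPKM in WT and to 102 and 97.9 FPKM in KO. Bcl2 made up 8.49% and 8.60% of that sum in WT and 5.42% and 5.30% in KO, and Bcl2l1 16.2% and 15.7% against 12.7% and 11.0%. The Bcl2a1 copies together made up 55.1% and 53.9% in WT and 62.1% and 55.8% in KO. Mcl1 took 18.9% and 20.4% in WT and 18.5% and 25.9% in KO, so the KO libraries differed mainly in how much was Bcl2a1a and how much Mcl1. The level of Mcl1 was 2.23 and 2.38 times that of Bcl2 in the WT libraries and 3.42 and 4.89 times in the KO libraries. These shares are descriptions of each library, with no test.

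**Figure D2:**
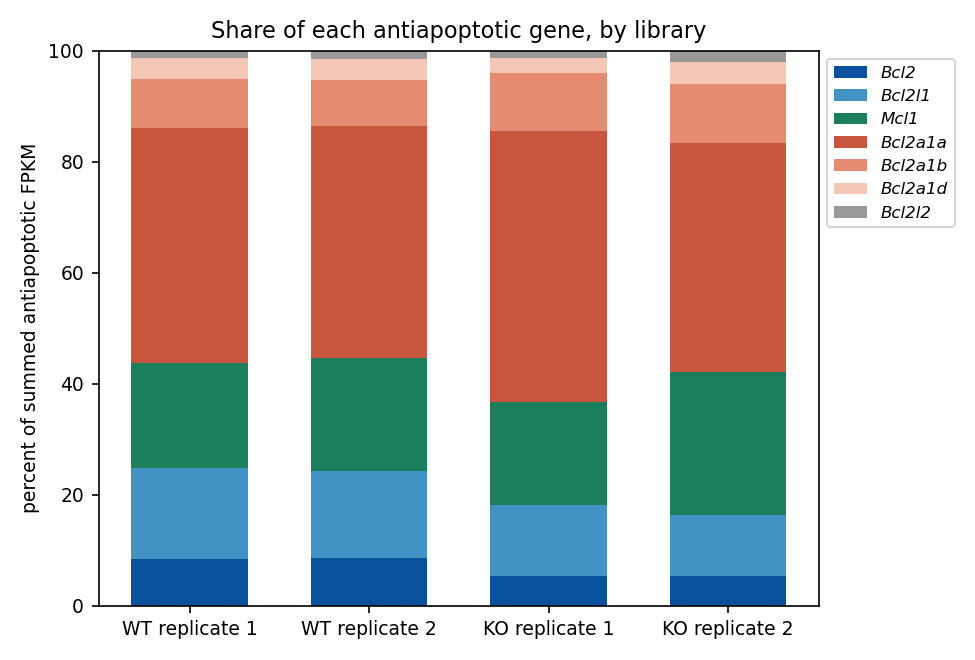
Stacked bars of each antiapoptotic gene's percent of the summed antiapoptotic FPKM in each library, with 1 bar per library. Bcl2 (dark blue) takes 8.49% and 8.60% in WT and 5.42% and 5.30% in KO, and the 3 Bcl2a1 copies (reds) take over 53% in each bar, with their split and total uncertain.

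Neither effector was called different between genotypes. Bax, which moves from the cytosol to mitochondria when activated (chromosome 7, 45461697 to 45466898, minus strand), was at 272 and 258 FPKM in WT and at 272 and 259 FPKM in KO. In both genotypes replicate 1 was the higher by about the same amount, and the groups overlapped fully. Its log2 fold change of 0.0020 had a limma adjusted p = 0.991. The 95% limits of −0.23 and 0.23 leave room for a difference of that size in either direction. The gene model Gm45808 shares 192 bases (12.2%) of the Bax exons on the same strand.

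Bak1, the effector that resides in the mitochondrial membrane (chromosome 17, 27019810 to 27029009, minus strand), was at 24.0 and 22.6 FPKM in WT and at 25.2 and 27.1 FPKM in KO. KO lay above WT in both libraries by a small margin, with a log2 fold change of 0.16 (SE 0.086, limma adjusted p = 0.331). Bax exceeded Bak1 by 11.4-fold in both WT libraries and by 10.8-fold and 9.56-fold in the KO libraries. Ggnbp1, on the other strand, overlaps exons of Bak1 and was at 0.247 to 0.380 FPKM.

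Among the BH3-only genes, Bid was lower in KO without passing the test. Bid links death receptors to mitochondria, being cut by caspase-8 into an active fragment. It was at 68.0 and 62.2 FPKM in WT and at 53.5 and 50.9 FPKM in KO, from 3077 to 4453 reads per library (chromosome 6, 120891930 to 120916853, minus strand). Both KO values lay below both WT values, and the group means were 65.1 ± 4.09 and 52.2 ± 1.85 FPKM (SD, n = 2). The difference was −0.31 on the log2 scale, with 95% limits of −0.52 and −0.10. The limma adjusted p = 0.149 and the limma-voom adjusted p = 0.058 both missed the threshold of 0.05. Exons of Bid and of its family relative Bcl2l13 on the other strand share 628 bases, 17.7% of Bid and 6.91% of Bcl2l13, and Bcl2l13 was at 4.18 and 4.71 FPKM in WT and 3.62 and 3.92 in KO.

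Bad, held inactive by growth factor signals through phosphorylation, was at 33.2 and 28.9 FPKM in WT and at 30.5 and 28.4 FPKM in KO (chromosome 19, 6941861 to 6951899, plus strand). The groups overlapped, with a log2 fold change of −0.072 (SE 0.099, limma adjusted p = 0.705). Gpr137, which shares 524 bases (20.5%) of the Bad exons on the other strand, was at 8.65 and 8.71 FPKM in WT and at 11.1 and 10.9 in KO.

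Bcl2l11 encodes BIM, a strong killer that FOXO factors induce and ERK signalling marks for degradation. It was at 0.898 and 1.16 FPKM in WT and at 1.08 and 0.914 FPKM in KO, from 125 to 159 reads per library (chromosome 2, 128126038 to 128162547, plus strand). The groups overlapped, with a log2 fold change of −0.024 (95% limits −0.45 to 0.40, limma adjusted p = 0.947). This wide interval goes with a level near the filter of 1 FPKM, which the WT mean (1.03 FPKM) met and the KO mean (0.994) did not. Bid stood 49.8 to 75.7 times above Bcl2l11 in the 4 libraries by FPKM, which divides by 3550 exonic bases for Bid and 8029 for Bcl2l11.

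**Figure D3:**
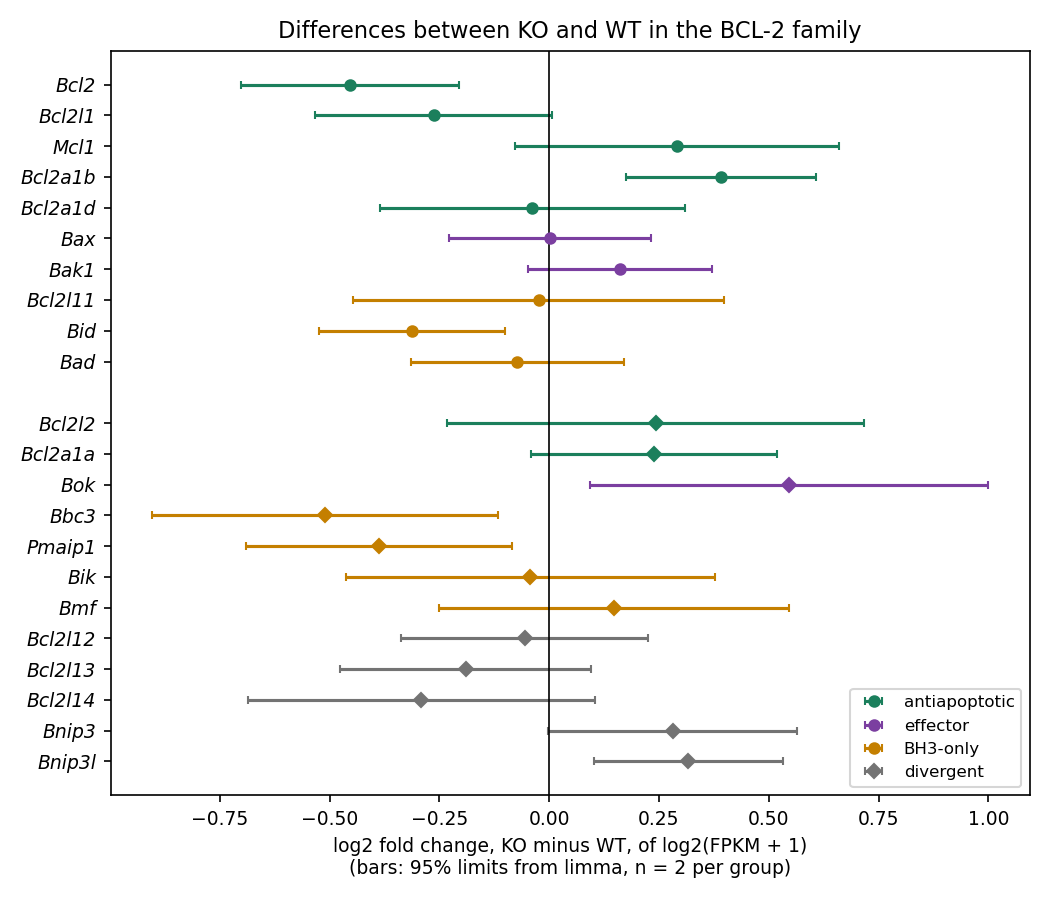
Log2 fold change between KO and WT for the 10 genes (circles) and the 12 other family genes in the table (diamonds), coloured by role, with 95% limits from limma (n = 2 per group). Bcl2 and Bid lie below 0 and Bcl2a1b above 0 with limits that exclude 0 before adjustment over all genes, and the limits of Bax are −0.23 to 0.23.

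Of 16 further BCL-2 family genes listed, 12 were in the table and tested, and 0 were called in either direction by limma. At an unadjusted p below 0.05 there were 2 higher and 2 lower, where 11.4% and 9.35% of all tested genes were. The BH3-only gene Pmaip1 encodes NOXA, which binds MCL-1 and is a p53 target. It was the highest family gene after Bax, at 92.1 and 102 FPKM in WT and at 82.2 and 66.5 in KO. KO lay below WT in both libraries (log2 fold change −0.39, limma adjusted p = 0.180, and −0.24 without KO replicate 2). Limma-voom called Pmaip1 lower (−0.41, adjusted p = 0.047), and no other gene of this list in either direction, where it called 3.04% of tested genes lower.

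Bbc3 encodes PUMA, another p53-induced BH3-only protein. It was at 11.7 and 8.23 FPKM in WT and at 6.77 and 6.44 in KO, with WT replicate 1 apart from the rest. Its log2 fold change was −0.51 (limma adjusted p = 0.176) and −0.28 without WT replicate 1. Bik and Bmf were near 1 FPKM, with means of 1.02 and 1.29 over the 4 libraries and limma adjusted p = 0.903 and 0.635. For Bik the WT mean was 1.04 FPKM and the KO mean 0.987, which is under the filter on level. The 4 further BH3-only genes summed to 106 and 113 FPKM in WT and 91.4 and 75.4 in KO, most of it Pmaip1.

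Bok, an effector relative, was at 1.38 and 1.998 FPKM in WT and at 2.48 and 3.38 in KO, from 47 to 106 reads per library (log2 fold change 0.55, limma adjusted p = 0.193). Bnip3 and Bnip3l act mainly in the removal of mitochondria by autophagy. Bnip3l was at 43.2 and 46.9 FPKM in WT and at 58.5 and 54.3 in KO, a log2 fold change of 0.32 (SE 0.088, limma adjusted p = 0.148). Bnip3 was at 22.3 and 27.6 against 29.6 and 31.2 FPKM (limma adjusted p = 0.243). Both stood higher in each KO library than in either WT library.

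The antiapoptotic Bcl2l2, which encodes BCL-W, was at 1.12 and 1.32 FPKM in WT and at 1.27 and 2.04 in KO (limma adjusted p = 0.503). Among the divergent relatives, Bcl2l12 averaged 22.5 FPKM over the 4 libraries and Bcl2l13 4.11 (limma adjusted p = 0.810 and 0.393). Bcl2l14 was at 1.18 and 1.31 FPKM in WT and at 0.836 and 0.832 in KO, and passed the filter on level only through its WT values (limma adjusted p = 0.351). Bcl2a1c, Bcl2l10, Hrk and Bcl2l15 were not analysed here.

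Steps on either side of the family were read from 6 lists, and none had a gene called by limma. The background beside each count is the share of all tested genes, whose median log2 fold change was 0.025. In the list of mitochondrial release and the apoptosome (13 tested) 2 genes were lower (background 9.35%) and 0 higher (11.4%) at an unadjusted p below 0.05, with a median log2 fold change of −0.0056. Cycs, cytochrome c, was at 102 and 112 FPKM in WT and at 94.4 and 87.2 in KO (log2 fold change −0.23, limma adjusted p = 0.238). Endog, a mitochondrial nuclease, was at 8.41 and 5.39 against 4.14 and 4.47 FPKM (−0.55, limma adjusted p = 0.195), and at −0.27 without WT replicate 1. Aifm1, a mitochondrial flavoprotein released in cell death, was at 20.9 and 21.3 against 17.8 and 18.8 FPKM (limma adjusted p = 0.248).

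Caspases, the proteases that carry out the death programme, gave 1 higher and 1 lower of 9 at an unadjusted p below 0.05 (background 11.4% and 9.35%, median −0.034). Casp8, the initiator that cuts Bid, was at 36.5 and 39.4 FPKM in WT and at 31.8 and 31 in KO (log2 fold change −0.26, SE 0.083, limma adjusted p = 0.176). Casp6 was at 5.50 and 3.59 against 3.84 and 3.20 FPKM (limma adjusted p = 0.432), and its log2 fold change of −0.28 was −0.028 without WT replicate 1.

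Of 9 tested genes of inhibitor of apoptosis proteins and their antagonists, 3 were higher and 1 lower at an unadjusted p below 0.05 (background 11.4% and 9.35%), and the median was 0.22. Naip2 and Naip6 belong to a family of bacterial sensors with close paralogs, so their reads may be split between copies. Naip2 was at 10.9 and 13.6 FPKM in WT and at 17.4 and 21.4 in KO (log2 fold change 0.63, limma adjusted p = 0.114), and Naip6 at 2.95 and 3.70 against 4.83 and 5.53 FPKM (0.52, limma adjusted p = 0.139). Limma-voom called these 2 genes higher (adjusted p = 0.0118 and 0.0239), where it called 3.51% of tested genes higher. Birc5, survivin, which acts in cell division, was at 64.0 and 69.2 against 59.6 and 48.0 FPKM (−0.31, limma adjusted p = 0.224), and at −0.16 without KO replicate 2.

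In the death receptor arm (9 of 12 tested) 0 were higher and 2 lower at an unadjusted p below 0.05 (background 11.4% and 9.35%), with a median of −0.0038. The KO pair was wholly below the WT pair in 3 of the 9 and wholly above it in 1, where 24.9% and 30.5% of tested genes were. Tradd, an adaptor of tumour necrosis factor receptors, was at 36.2 and 35.2 FPKM in WT and at 30.5 and 24.4 in KO (log2 fold change −0.37, limma adjusted p = 0.176), and at −0.22 without KO replicate 2. Mlkl, the pore-former of necroptosis, was at 36.3 and 35.7 against 30.6 and 30.05 FPKM (−0.24, limma adjusted p = 0.180). Fadd, the adaptor between receptors and caspase-8, was at 8.90 and 9.03 against 8.03 and 6.66 FPKM (limma adjusted p = 0.258).

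Genes that control turnover of MCL-1 and BIM (10 tested, median 0.093) had 0 genes at an unadjusted p below 0.05 in either direction (background 20.7%). Mapk3, which encodes the kinase ERK1, was at 42.1 and 40.7 FPKM in WT and at 45.5 and 47.8 in KO (log2 fold change 0.17, limma adjusted p = 0.287). Fbxw7, a ubiquitin ligase subunit, was at 1.15 and 1.32 against 1.64 and 1.97 FPKM (limma adjusted p = 0.288). Gsk3a was at 2.58 and 1.87 against 2.56 and 4.13 FPKM (0.42, limma adjusted p = 0.318), and at 0.15 without KO replicate 2.

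Of 14 tested genes for signals upstream of BCL-2 proteins, 1 was higher and 0 lower at an unadjusted p below 0.05 (background 11.4% and 9.35%, median −0.025). E2f1, a cell cycle factor, was at 11.7 and 11.6 FPKM in WT and at 14.5 and 13.8 in KO (log2 fold change 0.26, limma adjusted p = 0.185). Pim2, a survival kinase that phosphorylates BAD, was at 8.55 and 8.52 against 7.57 and 6.26 FPKM (−0.27, limma adjusted p = 0.246), and at −0.15 without KO replicate 2. Ddit3, the stress factor CHOP, was at 12.1 and 10.7 against 9.19 and 9.87 FPKM (−0.23, limma adjusted p = 0.265), and at −0.15 without WT replicate 1.

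Direction was steady for some of the 10 genes and not for others when the fit was altered. Across the settings tried, Bcl2, Bcl2l1 and Bid stayed below 0 and Bcl2a1b, Mcl1 and Bak1 above 0. With each library left out in turn, Bcl2 ran from −0.51 to −0.40, Bid from −0.38 to −0.25, Bcl2a1b from 0.38 to 0.40 and Mcl1 from 0.088 to 0.49. Replicates of Bcl2a1b lay closer together than the counting error of its 106 to 159 reads per library. The narrow range of Bcl2a1b therefore understates its uncertainty. Bax, Bcl2a1d, Bcl2l11 and Bad took both signs.

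**Figure D4:**
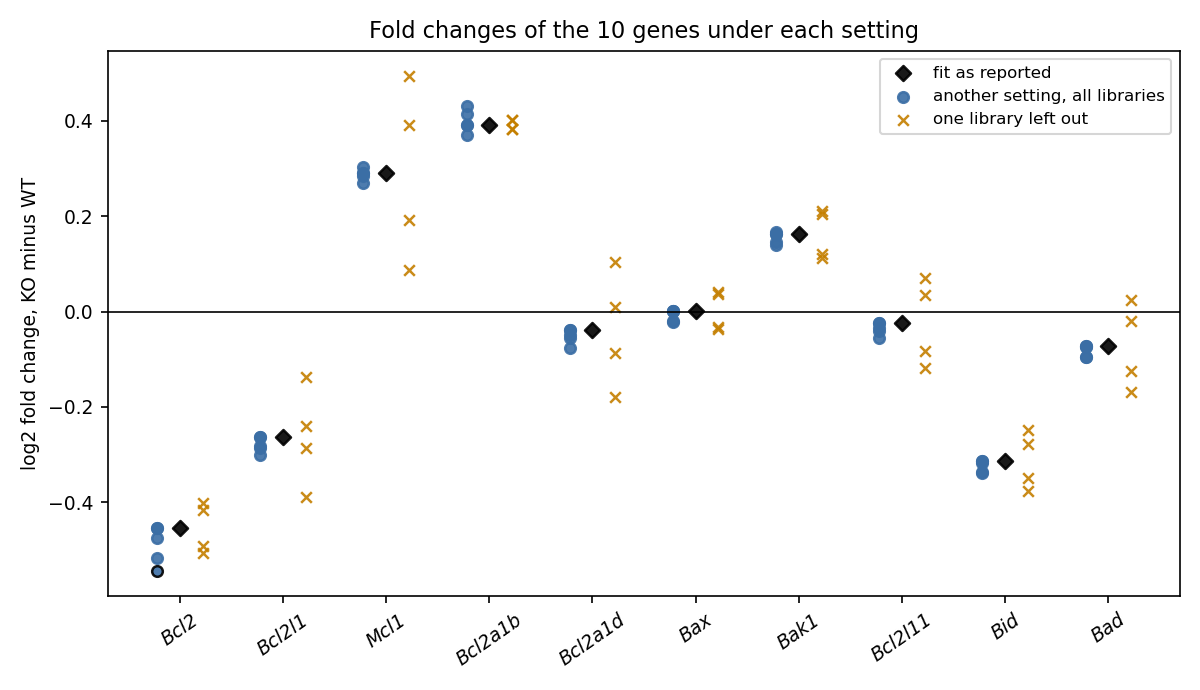
Log2 fold changes of the 10 genes in the fit as reported (black diamonds), under another setting with all libraries (blue circles, outlined where adjusted p is below 0.05) and with 1 library left out (orange crosses). Bcl2a1b keeps between 0.38 and 0.40 with a library left out while Mcl1 ranges from 0.088 to 0.49, and the outlined circle is Bcl2 by limma-voom.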

How the data were processed

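Poly(A) RNA was sequenced from 2 WT and 2 KO libraries. The authors deposited 1 table of FPKM values with 1 added to each, as inferred from the values, and that 1 was subtracted. CASAVA, HISAT2 2.1.0, featureCounts, DESeq2 and GRCm38 are named, without roles, per the submitters' processing notes. How genes were selected for the table is not stated. Symbols found 16003 of the 16442 genes in GENCODE M21 annotation. FPKM times exonic length came out as whole reads, within 0.05, in 99.0% to 99.2% of values at or under 30 reads. The 10 genes described all had more reads, and were accepted as whole under a tolerance that widens with the number of reads. For Bax, at 6740 to 7916 reads, that tolerance lets any value pass. A count of 3 reads on 2 kb of exons amounts to 0.0813 to 0.0904 FPKM, counting error only.

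KO was compared with WT by limma 3.58.1 (R 4.3.3, trend form) on log2(FPKM + 1) on the 11768 genes averaging 1 FPKM or more, with group as the only term, two-sided tests, Benjamini-Hochberg adjustment and a threshold of 0.05. Fold changes on this scale understate those of low genes. Alternatives were a pseudocount of 0.1, no filter on level, median-of-ratios scaling, limma-voom on recovered reads, a replicate block, the Bcl2a1 copies summed, and each library left out. Named genes were the 10 members, Rreb1, the other family genes in the table, and the 3 smallest p of each of 6 pathway lists, of which 1 is not reported here. Members and lists were chosen with earlier results of these data known. The procedure was tested on simulated data. Replicate pairs differed by more than sampling noise (mean chi-square per gene 11.6 in WT and 13.8 in KO, 1 degree of freedom). Nothing in the labels says that the libraries came from separate animals, so p-values measure only the spread between these libraries, which may be technical.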

Additional observations from a re-analysis of the deposited data

How the results depend on the processing

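Over all genes 71 were called higher and 48 lower in KO. These counts were 22 and 10 without the filter on level, 399 and 346 by limma-voom on recovered reads, and ran from 4 to 50 and from 2 to 14 with 1 library left out (4 and 2 without WT replicate 1, 8 and 3 without WT replicate 2, 50 and 14 without KO replicate 1, 14 and 3 without KO replicate 2). Those fits had fewer libraries, with 1 group of a single library assumed to vary like the other. With the replicate block they were 40 and 26. Deviations of same-numbered libraries from their group means had a correlation of 0.0090 across genes, so the numbers are not treated as pairs, and the block changed no call among the family genes. Limma-voom called 1 of the 10 genes lower (Bcl2, −0.54), and no other setting called any of them. EdgeR, planned only for a deposited table of counts, was not run, nor was DESeq2. Limma-voom was the fit made on the recovered reads. Signs turned for Bax with median-of-ratios scaling (−0.022) and limma-voom (−0.019). The sum of the Bcl2a1 copies, most of it Bcl2a1a, had 0.26, a quantity other than Bcl2a1d alone. With 1 library left out Bax ran from −0.037 to 0.041, Bcl2a1d from −0.18 to 0.10, Bcl2l11 from −0.12 to 0.070, Bad from −0.17 to 0.025, Bik from −0.14 to 0.058, Bcl2l12 from −0.20 to 0.093 and Rreb1 from −0.013 to 0.27. The cause was not tested. Depth limits Bcl2a1d and Bik most, with 46 to 55 and 23 to 33 reads per library.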
